A study of Mus musculus with 24 samples.

Results

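Mitochondrial ribosomal protein genes are nuclear genes that encode the protein part of the ribosome inside mitochondria. They were followed here in RNA-seq of βTC3 cells. This mouse insulinoma line comes from pancreatic beta cell tumours in mice that carry the SV40 large T antigen under an insulin promoter. The genes were chosen by name: every protein-coding gene of the count tables whose symbol begins with Mrpl or Mrps followed by a digit. This gave 78 of 46517 gene entries; GENCODE M21 supplied symbols for 46005 of the entries. By the position of their product, 26 belong to the small subunit and 51 to the large subunit, Mrps18a and Mrps30 included. The remaining gene, Mrps36, carries a ribosomal name but encodes a subunit of the 2-oxoglutarate dehydrogenase complex. A bacterial ribosomal homologue is known for 48 of the proteins, and 29 are specific to mitochondria. The genes lie on 17 chromosomes, and their coordinates are given in GRCm38.

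The study used 24 libraries of polyA RNA in 8 groups of 3. Cells with the plasmid PB-31 carrying the miR-23b cluster and cells with PB-31 carrying miR-137 were each sampled in 3 states: DOX withdrawn (7 d in 2 µg/ml doxycycline, then another 7 d in plain DMEM), 7 d DOX (7 d in doxycycline at the same concentration), and no DOX (7 d in plain DMEM). Cells with PB-31 labelled as control were sampled after 7 d DOX and with no DOX. They are called here the miR-23b, the miR-137 and the control line. All 8 groups share the βTC3 background and a PB-31 plasmid. The labels name no clone, plate or sequencing date, and describe triplicate wells, so p-values measure the spread between wells, which may be technical. The groups hold neither a withdrawn control culture nor an untreated culture of the withdrawn cultures' age, so withdrawal and time in culture cannot be told apart.

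The mitochondrial ribosome descends from that of bacteria. It makes the few proteins encoded on mitochondrial DNA, all of them parts of the respiratory chain and ATP synthase, while its own proteins are made in the cytosol and imported. Doxycycline is a tetracycline: it blocks bacterial ribosomes and can block mitochondrial translation as well, so the control line shows what the drug alone goes with, and the other lines what drug and induced miRNA together go with. In beta cells, mitochondrial ATP production links glucose to insulin release.

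The libraries held 15759849 to 24144737 reads counted to genes. Of all reads listed, those mapping to several places included, between 9.62% and 12.1% were listed as outside genes. All 10 beta-cell markers were detected, with summed levels of 17439 to 21939 CPM (counts scaled to the library size, with TMM factors). The 6 fibroblast, 5 leukocyte, 4 endothelial and 4 exocrine markers in the tables summed to at most 4.52, 4.13, 1.28 and 1.21 CPM. The hairpin entry Mir23b had 0 to 1 counts in the withdrawn miR-23b libraries, 850 to 1201 under 7 d DOX and 1 to 5 with no DOX, and at most 1 in any library of the other lines. Mir27b and Mir24-1 had 1379 to 2008 and 1619 to 2422 counts under 7 d DOX in the miR-23b line. With no DOX they had 7 to 12 and 11 to 12 there, against 0 to 2 each in the untreated control libraries. After withdrawal they had 0 to 4 and 0 to 6. The Mir137 entry had 0 counts in all 24 libraries (a count of 0 allows up to 3 counts in a library), so these counts check nothing about the miR-137 plasmid.

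The induced miRNAs recognise transcripts mainly through their seed, bases 2 to 8, and are shown because the miR-23b and miR-137 lines differ from the control line by them. The mature sequences are from RefSeq, with the seed in capitals, and no seed is shared between them. The plasmid's cluster also encodes miR-23b-3p, whose sequence is not shown.
mmu-miR-27b-3p: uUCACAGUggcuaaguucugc
mmu-miR-24-3p: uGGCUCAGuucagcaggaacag
mmu-miR-137-3p: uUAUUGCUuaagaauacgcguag

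Seed matches in the 3' UTRs of the genes described most closely below are given with 11 bases on either side, on the transcribed strand, in GRCm38, with the match in capitals. Mrpl11 held 2 matches to miR-24-3p, Mrpl36 held 1 to the same seed, and Mrpl12 and Mrps12 each held 1 to miR-27b-3p. These genes fell in the miR-23b line under 7 d DOX. Matches to these seeds, not printed, were also found in Mrpl35, Mrps25 and Mrpl48, which rose there. Of 20 genes with a match to either seed, 13 fell and 3 rose in that comparison. Over all genes tested, 1414 of 4201 with a match fell and 1282 rose. Mrpl18 held 1 match to miR-137-3p. Matches to that seed in Mrpl15, Mrpl48 and Mrpl49 are not printed.
Mrpl11, chr19:4964832-4964860, plus strand: cacagaggaagCTGAGCCaaaggacttca
Mrpl11, chr19:4965503-4965531, plus strand: gctcttacctcCTGAGCCatctctctact
Mrpl36, chr13:73332007-73332035, plus strand: taagaggctgcCTGAGCCaaaaagctctt
Mrpl12, chr11:120488567-120488595, plus strand: aggatggacctACTGTGAtggggtggggc
Mrps12, chr7:28739775-28739803, minus strand: gctcaaatcttACTGTGAttcagcaagac
Mrpl18, chr17:12911507-12911535, minus strand: gaaagcttcagAGCAATAatgtgactgaa

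The promoters of 4 genes that moved in the miR-23b line follow, as 300 bases from 250 before to 50 after the RefSeq start (GRCm38.p6). Capitals mark matches, on either strand, to CCGGAAG (bound by ETS factors such as GABPA), GCATGCGC (part of the NRF1 site) and AAGATGGC (YY1), motifs known from promoters of nuclear genes for mitochondrial proteins. Mrpl11 held no match to any of them.
Mrpl36, chr13:73330759-73331058, plus strand: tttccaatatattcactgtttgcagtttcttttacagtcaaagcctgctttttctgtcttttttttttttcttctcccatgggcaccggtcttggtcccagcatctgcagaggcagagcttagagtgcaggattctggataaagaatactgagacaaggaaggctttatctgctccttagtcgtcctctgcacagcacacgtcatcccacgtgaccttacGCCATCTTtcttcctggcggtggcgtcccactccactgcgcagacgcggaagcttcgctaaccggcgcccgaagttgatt
Mrpl17, chr7:105811038-105811337, minus strand: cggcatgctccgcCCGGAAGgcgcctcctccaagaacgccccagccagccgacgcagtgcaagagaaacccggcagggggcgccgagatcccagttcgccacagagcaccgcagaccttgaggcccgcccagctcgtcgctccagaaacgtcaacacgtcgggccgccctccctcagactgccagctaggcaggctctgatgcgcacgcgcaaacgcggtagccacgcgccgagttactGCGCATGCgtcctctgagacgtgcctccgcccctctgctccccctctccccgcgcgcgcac
Mrps12, chr7:28741772-28742071, minus strand: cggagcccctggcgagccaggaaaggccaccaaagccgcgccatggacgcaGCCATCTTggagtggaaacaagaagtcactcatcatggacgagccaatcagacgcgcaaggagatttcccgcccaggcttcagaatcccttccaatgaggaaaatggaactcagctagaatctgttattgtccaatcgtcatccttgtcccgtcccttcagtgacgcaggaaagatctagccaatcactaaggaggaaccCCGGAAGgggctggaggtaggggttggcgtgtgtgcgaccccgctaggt
Mrpl11, chr19:4962056-4962355, plus strand: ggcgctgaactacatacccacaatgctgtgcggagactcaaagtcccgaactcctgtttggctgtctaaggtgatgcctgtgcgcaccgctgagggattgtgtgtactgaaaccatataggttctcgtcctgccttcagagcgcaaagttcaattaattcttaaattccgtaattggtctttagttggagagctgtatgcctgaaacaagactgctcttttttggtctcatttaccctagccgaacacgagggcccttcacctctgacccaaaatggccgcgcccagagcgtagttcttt

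Levels between genes were compared on the authors' TPM, which is scaled to transcript length. The mean TPM over all 24 libraries had a median of 38.8 among the genes, with 8 genes at 100 TPM or more and 7 below 10 TPM. The most abundant were Mrpl20 at 221 TPM (188 to 246 over libraries), Mrps21 at 196 TPM (180 to 215) and Mrps17 at 136 TPM (125 to 147). The least abundant were Mrpl35 at 2.75 TPM (2.36 to 3.20), Mrps27 at 5.41 TPM (4.71 to 6.15) and Mrpl57 at 5.75 TPM (4.89 to 6.36). The order thus spans genes whose products sit side by side in one particle, and the ranges of Mrps27 and Mrpl57 overlapped. TPM and counts were made separately and did not rank every gene alike: Mrpl11 had a mean of 6.71 TPM but about 40 CPM, and Mrpl23 43.1 TPM but at most 2.10 CPM.

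Of the 78 genes, 77 passed the filter on low counts among 14866 genes tested. Mrpl53 did not: it had 0 counts in all 24 libraries, against 35.07 to 45.75 TPM in the authors' TPM table. Its exons overlap those of Gm42688 on the same strand over 88.0% of their length. Exon overlap with another gene of the tables was found for 33 of the 78, on the same strand for 8, and 5 pseudogene entries share a name with Mrpl23, Mrpl48 or Mrps36, so counts of such genes are less certain.

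Summed over all 78 genes, transcripts of the mitochondrial ribosome were lower in every library under 7 d DOX than in any with no DOX in both miRNA lines. In the miR-23b line the sum was 2774 ± 39.6 CPM after withdrawal, 2513 ± 41.6 CPM under 7 d DOX and 2809 ± 13.1 CPM with no DOX (SD, n = 3 each). In the miR-137 line it was 2726 ± 31.7, 2594 ± 54.0 and 2718 ± 53.3 CPM in the same 3 states. The control line had 2653 ± 49.1 CPM under 7 d DOX and 2721 ± 25.4 CPM with no DOX. In the miR-23b line every 7 d DOX library (2466 to 2543 CPM) lay below every withdrawn (2745 to 2819 CPM) and every no DOX library (2801 to 2824 CPM). In the miR-137 line the 7 d DOX libraries (2532 to 2630 CPM) also lay below the withdrawn (2691 to 2751 CPM) and no DOX libraries (2656 to 2749 CPM). In the control line the 7 d DOX libraries (2606 to 2704 CPM) overlapped the no DOX libraries (2700 to 2749 CPM). Summed as the authors' TPM, the miR-23b line had 3916 to 3985 after withdrawal, 3763 to 3903 under 7 d DOX and 4008 to 4076 with no DOX, and the miR-137 line 3866 to 3895, 3676 to 3821 and 3918 to 3974 in the same 3 states. The 7 d DOX libraries were thus again lowest in both lines, but the gaps were of like size with no DOX, and between withdrawn and 7 d DOX libraries the gap was the narrower one in the miR-23b line. Both sums are relative to the library. In such bulk libraries, a smaller share of cells expressing these genes and less of their RNA per expressing cell cannot be told apart.

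**Figure D1:**
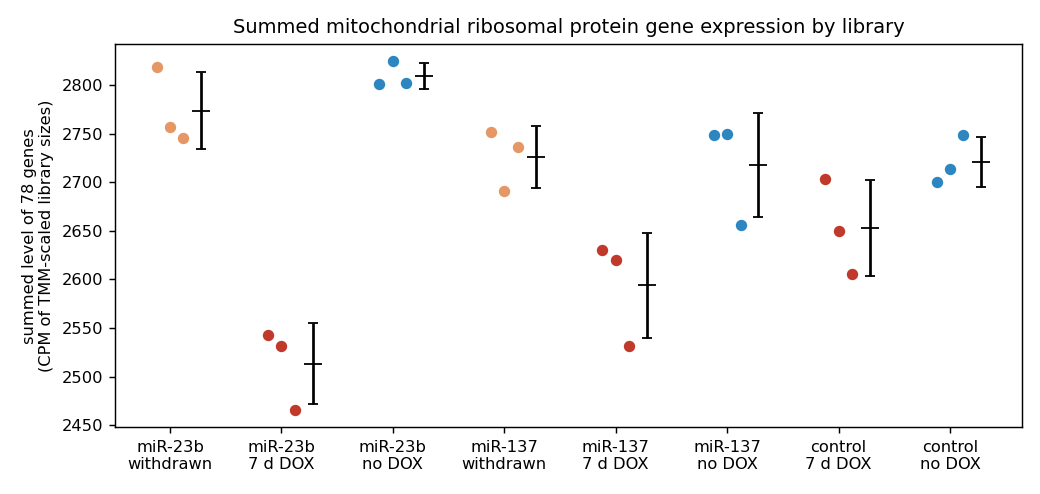
Summed CPM (TMM-scaled) of the 78 genes in each library, by line and state; points are libraries and bars the mean with its SD (n = 3 each). The y axis does not start at 0. The 3 miR-23b libraries under 7 d DOX lie at 2466 to 2543 CPM, below every other miR-23b library.

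In the miR-23b line, 7 d DOX against no DOX, 42 of the 77 tested genes fell and 5 rose, by edgeR's quasi-likelihood test at an adjusted p below 0.05. Over all 14866 genes tested, 28.6% fell and 28.8% rose. The genes' median log2 fold change was -0.14, 90.6% of the no DOX level, beside 0.01 for all genes tested, and 64 of 77 had a negative value. The falls were small: those of the 42 genes ran from -0.10 to -0.76 with a median of -0.23, and 2 of them exceeded 0.5 in size. Both subunits took part, with 15 of 26 small-subunit genes lower and 2 higher (median -0.15), and 27 of 50 large-subunit genes lower and 3 higher (median -0.14). Genes with a bacterial homologue had 29 of 48 lower and 3 higher, and mitochondria-specific ones 13 of 28 lower and 2 higher. Scaling by total counts gave a median of -0.08 beside 0.07 for all genes, with 61.4% of all calls higher against 50.2% here. On the authors' TPM, 27 genes fell, with a median of -0.06 beside 0.09 for all genes and 67.0% of all calls higher. The size of the fall thus depends on the scale, and the median of all genes moved with it. On each of these scales the genes' median lay below that of all genes. The 10 beta-cell markers summed to 17439 to 18190 CPM under 7 d DOX and 19181 to 19384 CPM with no DOX in these libraries, and their part in the result was not tested.

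Mrpl36 (chr13:73328513-73332178, plus strand) encodes a short zinc-binding protein of the large subunit and had the largest called change. It measured 44.4, 41.7 and 43.3 CPM in the withdrawn libraries of the miR-23b line, 31.2, 28.03 and 29.4 CPM under 7 d DOX and 47.6, 50.7 and 51.1 CPM with no DOX. The 3 states did not overlap: 7 d DOX was lowest and the withdrawn libraries lay between. Its log2 fold change for 7 d DOX against no DOX was -0.76 ± 0.052 (SE, adjusted p = 1.58e-15, edgeR).

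Mrpl18 (chr17:12911349-12916345, minus strand) encodes a protein of the central protuberance, the crest of the large subunit that faces the small one. Its values were 56.6, 60.3 and 55.2 CPM after withdrawal in the miR-23b line, 46.9, 42.98 and 40.6 CPM under 7 d DOX and 62.6, 65.9 and 64.8 CPM with no DOX. Again 7 d DOX lay below both other states without overlap, at -0.56 ± 0.054 against no DOX (SE, adjusted p = 2.05e-11, edgeR). Its exons overlap Tcp1 on the opposite strand over 10.1% of their length. All 7 central protuberance genes were called in this comparison, though not in 1 direction, where 28.6% of all genes tested fell and 28.8% rose. Besides Mrpl18, Mrpl46 (-0.34), Mrpl55 (-0.33), Mrpl40 (-0.23) and Mrpl38 (-0.17) fell on the log2 scale. Mrpl27 (0.19), whose product lies near the peptidyl transferase centre, and Mrpl48 (0.25) rose. The call of Mrpl27 was lost without no DOX replicate 1 (adjusted p = 0.066) or 7 d DOX replicate 2 (0.068), and that of Mrpl48 on the authors' TPM (0.086, limma).

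The stalk, which recruits elongation factors during translation, was lower in all 3 of its genes, where 28.6% of all genes tested were. Mrpl11 (chr19:4962147-4966999, plus strand), at the base of the stalk, had 43.5, 41.7 and 43.3 CPM in withdrawn cells of the miR-23b line, 29.4, 29.9 and 31.6 CPM under 7 d DOX and 43.3, 42.7 and 39.8 CPM with no DOX. Withdrawn and no DOX libraries overlapped, and all lay above 7 d DOX. The log2 fold change of Mrpl11 for 7 d DOX against no DOX was -0.47 ± 0.049 (SE, adjusted p = 1.46e-10, edgeR). Mrpl12 (chr11:120484610-120489060, plus strand), the flexible arm of the stalk, had 52.6, 48.5 and 49.4 CPM after withdrawal, 43.5, 40.4 and 38.3 CPM under 7 d DOX and 51.5, 55.6 and 54.8 CPM with no DOX, a change of -0.40 ± 0.048 for 7 d DOX against no DOX (SE, adjusted p = 3.42e-09). Mrpl10, which anchors Mrpl12, fell to a log2 fold change of -0.16 ± 0.043 (SE, adjusted p = 0.00152), and was not called on the authors' TPM (adjusted p = 0.75, limma).

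At the rim of the exit tunnel, where new proteins leave, 2 of 6 genes fell, near the 28.6% of all genes tested. Mrpl17 (chr7:105803210-105811100, minus strand) had 40.5, 44.1 and 39.3 CPM after withdrawal, 31.01, 32.3 and 31.1 CPM under 7 d DOX and 40.3, 40.6 and 41.02 CPM with no DOX in the miR-23b line. Its 7 d DOX libraries stood below all others, at -0.37 ± 0.054 against no DOX (SE, adjusted p = 2.85e-07, edgeR). Mrpl45, which helps hold the ribosome at the inner membrane, fell too (-0.12), and Mrpl22, Mrpl23, Mrpl24 and Mrpl47 were not called. In the small subunit, Mrps12 (chr7:28739641-28741820, minus strand), a protein of the decoding centre, had 31.1, 30.3 and 31.4 CPM after withdrawal, 26.4, 23.3 and 23.1 CPM under 7 d DOX and 31.1, 29.8 and 30.2 CPM with no DOX, a change of -0.32 for 7 d DOX against no DOX (adjusted p = 2.6e-05, edgeR). Of the 3 genes near the mRNA entrance, 2 fell, beside the same 28.6%: Mrps35 (-0.26) and Mrps5 (-0.18).

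Further falls in the miR-23b line were those of Mrpl34 (-0.44), Mrpl57 (-0.35) and Mrps6 (-0.34) on the log2 scale. Mrps25 (0.21), Mrpl35 (0.18) and Mrps10 (0.13) rose, of which Mrps25 shares 69.8% of its exon length with Nr2c2 on the opposite strand. The call of Mrps10 was lost with DESeq2, on TPM, without a filter on low counts, with the compared groups alone, and without no DOX replicate 1, 2 or 3 or 7 d DOX replicate 2 (adjusted p = 0.063 to 0.43), and that of Mrpl35 without no DOX replicate 1 or 2 or 7 d DOX replicate 1 (0.051 to 0.078). Among genes picked by level or role, Mrps21 (-0.21), Mrps17 (-0.12), Mrps30 (-0.16) and Mrpl58 (-0.16), a peptidyl-tRNA hydrolase that rescues stalled ribosomes, fell. The calls of Mrps17 and Mrps30 were lost without single libraries (adjusted p = 0.052 to 0.12): for both without no DOX replicate 1, for Mrps17 also without 7 d DOX replicate 2, and for Mrps30 also without no DOX replicate 2 or 7 d DOX replicate 1 or 3. Scaling by total counts ended the calls of Mrps17, Mrps30 and Mrpl58 (adjusted p = 0.098 to 0.21), TPM those of Mrps21 (0.053) and Mrps30 (0.87), and testing without a filter on low counts those of Mrps17 (0.068) and Mrps30 (0.061). Mrpl20 (-0.08), Mrps27 (-0.13), Mrps18a (-0.09) and Mrps36 (0.06) did not pass. The number of genes higher was 3 without no DOX replicate 2 or 7 d DOX replicate 2 and 2 without no DOX replicate 1.

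**Figure D2:**
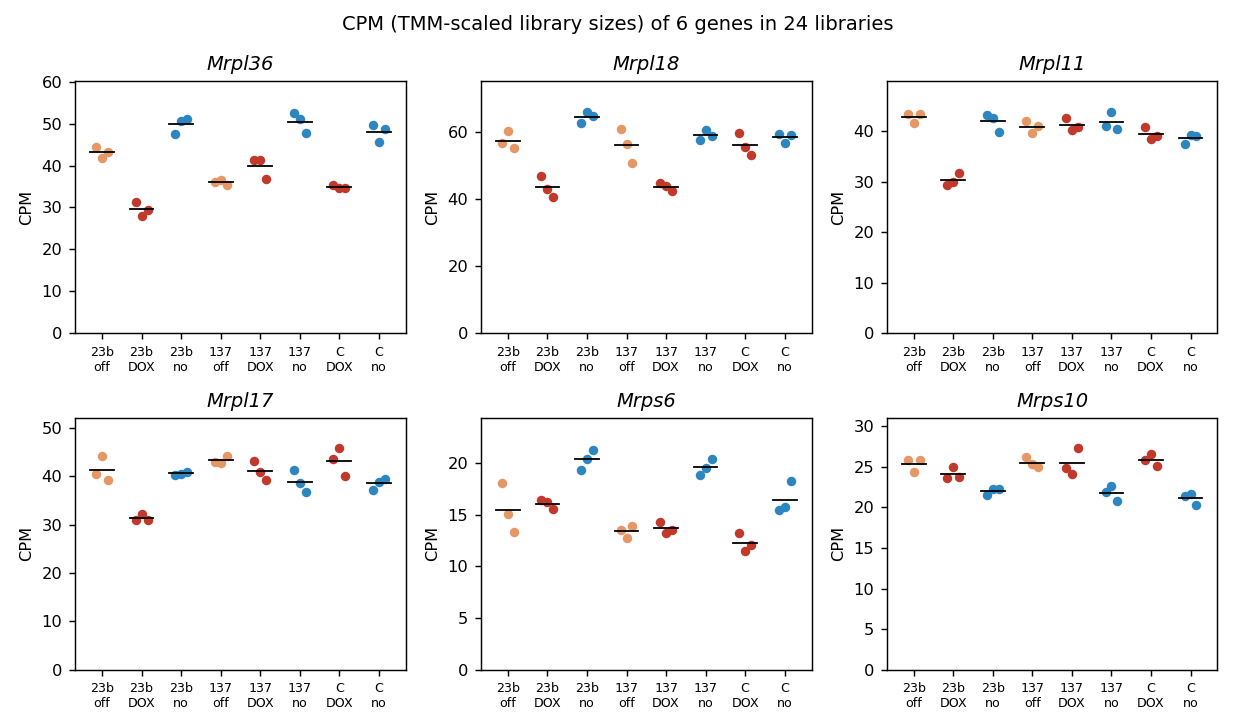
CPM (TMM-scaled) of 6 genes in all 24 libraries, by line (C is the control line, the others are named by their miRNA) and state (off for DOX withdrawn, DOX for 7 d DOX, no for no DOX); points are libraries and lines the mean of 3. Mrpl11 and Mrpl17 are lowest in the miR-23b libraries under 7 d DOX, and Mrpl36 and Mrps6 are lower under 7 d DOX than with no DOX in all 3 lines.

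In the miR-137 line, 7 d DOX against no DOX, 20 of 77 genes fell and 4 rose, where 21.8% of all genes tested fell and 21% rose. The median of the genes was -0.06 beside 0.00 for all genes, and 56 of 77 values were negative. The beta-cell markers, whose part was not tested, summed to 19902 to 20671 CPM under 7 d DOX and 18162 to 19352 CPM with no DOX, so they lay higher under the drug here, unlike in the miR-23b line. By subunit, 5 of 26 small-subunit genes fell and 2 rose, and 15 of 50 large-subunit genes fell and 2 rose. The count of genes lower was 12 without no DOX replicate 1, and that of genes higher was 2 without 7 d DOX replicate 1 or without no DOX replicate 1 or 3. Mrpl18 had 61.1, 56.3 and 50.6 CPM after withdrawal in this line, 44.7, 43.9 and 42.5 CPM under 7 d DOX and 57.8, 60.7 and 58.7 CPM with no DOX. The 7 d DOX libraries of Mrpl18 lay below both other states, which overlapped, at -0.43 ± 0.055 against no DOX (SE, adjusted p = 2.43e-08, edgeR).

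Mrps6 (chr16:92058270-92112227, plus strand), a protein of the small-subunit platform, fell in the miR-137 line, at -0.52 ± 0.08 (SE, adjusted p = 1.3e-06, edgeR). Its values were 13.6, 12.7 and 13.9 CPM after withdrawal, 14.3, 13.3 and 13.5 CPM under 7 d DOX and 18.9, 19.5 and 20.4 CPM with no DOX. Both drug-exposed states lay below no DOX and overlapped each other. Of its exon length 10.4% is shared with Slc5a3 on the same strand. Mrpl45 (-0.29), Mrpl46 (-0.24) and Mrpl1 (-0.23) also fell. The nominally largest fall, Mrpl23 at -0.80 (adjusted p = 0.00608), rests on 0.884 to 1.199 CPM under 7 d DOX and 1.67 to 2.10 CPM with no DOX, and its reads may be split with a pseudogene. Mrpl14, at the face where the subunits join, rose to 40.5, 37.6 and 37.4 CPM under 7 d DOX, against 35.5, 30.04 and 31.8 CPM with no DOX (0.25, adjusted p = 0.000552, edgeR). Mrps31 (0.17) rose too, a call lost without 7 d DOX replicate 1 or without no DOX replicate 1 or 3 (adjusted p = 0.057 to 0.15).

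In the control line, where the labels name no miRNA, 8 of 77 genes fell and 3 rose under 7 d DOX, against 19.3% lower and 18.5% higher over all genes tested. The genes' median was -0.03 beside 0.01 for all genes, with 50 values negative and 27 positive. Leaving out no DOX replicate 3 gave 5 genes higher. The beta-cell markers, whose part was not tested, summed to 18913 to 19754 CPM under 7 d DOX and 17874 to 18303 CPM with no DOX. Mrpl36 had 35.3, 34.8 and 34.6 CPM under 7 d DOX and 49.8, 45.7 and 48.8 CPM with no DOX, with no overlap (-0.47 ± 0.051, SE, adjusted p = 1.01e-09, edgeR). Mrps6 had 13.3, 11.5 and 12.04 CPM under 7 d DOX, against 15.4, 15.7 and 18.3 CPM with no DOX (-0.43 ± 0.084, SE, adjusted p = 8.35e-05). Both genes were thus lower in every drug-treated control library than in every untreated one. Mrpl34 (-0.31), Mrpl12 (-0.27), Mrpl39 (-0.16), Mrpl45 (-0.15), Mrps9 (-0.13) and Mrps7 (-0.11) were the other genes that fell. Mrps9 lost its call with DESeq2 and without 7 d DOX replicate 1 or no DOX replicate 2 or 3 (adjusted p = 0.062 to 0.081), and Mrpl39 on TPM (0.072, limma). Mrps7 lost its call without any library but no DOX replicate 3 (adjusted p = 0.051 to 0.14). It was also not called with DESeq2, RLE or total-count scaling, without a filter on low counts, with the compared groups alone, or on TPM (0.0503 to 0.37).

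Mrps10 (chr17:47368887-47381417, plus strand), a protein of the small-subunit head, had the largest rise of the control line. It measured 25.8, 26.6 and 25.05 CPM under 7 d DOX and 21.4, 21.6 and 20.3 CPM with no DOX, without overlap (0.29 ± 0.057, SE, adjusted p = 6.53e-05, edgeR). Mrpl17 had 43.6, 45.8 and 40.1 CPM under 7 d DOX, against 37.3, 38.9 and 39.5 CPM with no DOX (0.17, adjusted p = 0.0108), a call lost without 7 d DOX replicate 2 (0.13) or no DOX replicate 1 (0.073). Mrpl49 rose by 0.14 on the log2 scale (adjusted p = 0.00245).

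Between lines, the comparisons of drug-treated with untreated cells share no library, so their calls could be set side by side. Mrpl12, Mrpl34, Mrpl36, Mrpl45 and Mrps6 fell in all 3 lines, and Mrps10 rose in all 3. On the authors' TPM with limma, Mrps10 was called in none of the 3 lines (adjusted p = 0.43 in the miR-23b, 0.22 in the miR-137 and 0.069 in the control line), and Mrpl45 not in the control line (0.32). The log2 fold changes of Mrpl34 were -0.44 in the miR-23b line, -0.17 in the miR-137 line and -0.31 in the control line, and those of Mrpl12 were -0.40, -0.25 and -0.27 in that order. The miR-23b and control lines shared 6 genes lower, so 6 of 42 and 6 of 8. The miR-137 and control lines also shared 6, so 6 of 20 and 6 of 8, and the 2 miRNA lines shared 14, so 14 of 42 and 14 of 20. Over all genes tested, the lower calls shared by the miR-23b and control lines were 44.5% and 65.8% of each line's calls, those of the miR-137 and control lines 61.1% and 69.0%, and those of the 2 miRNA lines 49.1% and 64.3%. In all 3 lines together, 10.2% of all genes tested fell and 7.41% rose, beside the 5 and the 1 of 77 here. In at least 1 line, 49 of the 77 genes fell and 10 rose, where 39.8% of all genes tested fell and 42.2% rose. In none of the 3 lines were 22 of the 77 called, beside 24.8% of all genes tested. Mrpl14, Mrpl17, Mrpl49 and Mrps25 were called in opposite directions in a pair of lines. The share of all genes tested called in this way was not computed.

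**Figure D3:**
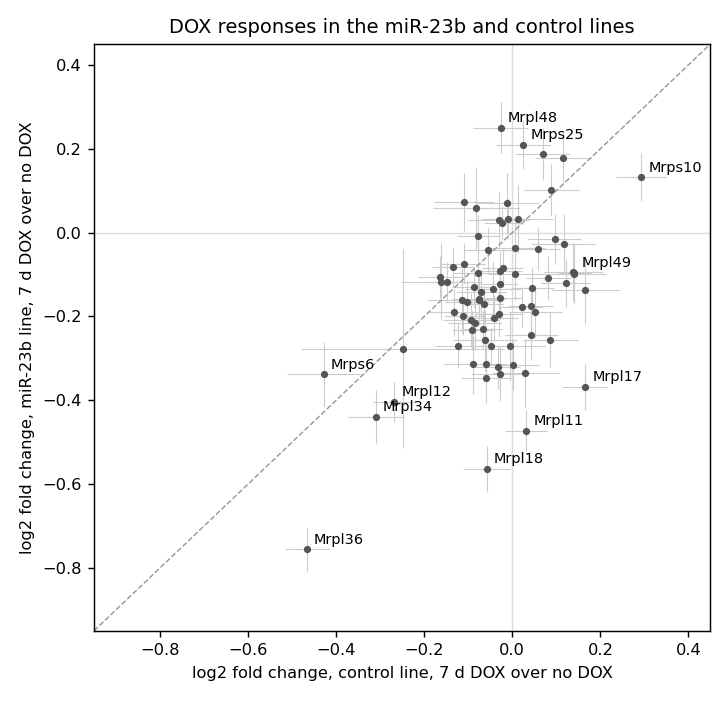
Log2 fold change of 7 d DOX over no DOX in the control line (x axis) and in the miR-23b line (y axis) for the 77 tested genes; bars are SE and the dashed line marks equal change. Mrpl36 is lowest in both lines, while Mrpl11, Mrpl17 and Mrpl18 lie far below the dashed line and near or above 0 in the control line.

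Whether the drug response of a line differed from that of the control line was tested as the difference between the responses. For the miR-23b line the response of 22 genes was lower than in the control line and that of 1 was higher, where 19.4% and 18.1% of all genes tested were. The median difference was -0.11 beside -0.01 for all genes. With scaling by total counts it was -0.07 and 58.4% of all calls were higher, and on TPM it was -0.03 and 69.8% were, against 48.3% here. The median of all genes and the shares of all genes lower and higher are not given for those scales. The values on those scales therefore have nothing to be set against. On TPM 12 genes were lower and 2 higher, and the number higher was 2 without control no DOX replicate 3 or miR-23b 7 d DOX replicate 3. The difference was -0.53 ± 0.075 for Mrpl17 (SE, adjusted p = 3.74e-07, edgeR), -0.51 ± 0.076 for Mrpl18 (adjusted p = 1.35e-06) and -0.50 ± 0.069 for Mrpl11 (adjusted p = 2.1e-07).

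In the control line, Mrpl11 had 40.9, 38.4 and 38.97 CPM under 7 d DOX and 37.4, 39.3 and 39.1 CPM with no DOX, so the libraries overlapped and the value of 0.03 was not called. Mrpl18 had 59.6, 55.7 and 53.1 CPM under 7 d DOX and 59.4, 56.9 and 59.00 CPM with no DOX there, likewise overlapping (-0.06, adjusted p = 0.415). Smaller differences between the miR-23b and control responses were those of Mrpl55 (-0.36), Mrps16 (-0.34), Mrps12 (-0.32), Mrpl36 (-0.29) and Mrpl57 (-0.29). That of Mrpl55 was lost without miR-23b no DOX replicate 2 (adjusted p = 0.056) and on TPM (0.064, limma), as was that of Mrpl57 on TPM (0.086). Mrpl48 was the gene with the higher response, at 0.28 ± 0.087 (SE, adjusted p = 0.0106), and on TPM this was 0.11 and not called (adjusted p = 0.37, limma). For Mrps6, Mrpl12 and Mrpl34 the differences were 0.09, -0.14 and -0.13 and did not pass.

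For the miR-137 line against the control line the response of 2 genes was lower and that of 0 was higher, where 4.78% and 5.9% of all genes tested were. At an unadjusted p below 0.05 edgeR gave 7 lower and 2 higher. The share of all genes tested at that unadjusted threshold was not computed, so these counts have nothing to be set against. DESeq2 gave 2 lower and 0 higher after adjustment, limma on TPM 5 and 0. Mrpl18 differed by -0.38 ± 0.076 (SE, adjusted p = 0.000774, edgeR). Mrpl1 differed by -0.27 ± 0.086 (SE, adjusted p = 0.0345). The call of Mrpl1 was lost, and 1 gene was left lower, without replicate 1 or 2 of the miR-137 7 d DOX, control 7 d DOX or control no DOX libraries, or replicate 1 or 3 of the miR-137 no DOX libraries (adjusted p = 0.057 to 0.12). Without miR-137 no DOX replicate 1 or control 7 d DOX replicate 2, 1 gene was higher. Both response differences use the same control libraries and are not independent of each other.

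After withdrawal in the miR-23b line, 40 genes were higher and 3 lower than under 7 d DOX, where 26.4% of all genes tested were higher and 25.8% lower. This comparison uses the same 7 d DOX libraries as the one with no DOX. The genes' median was 0.14 beside 0.00 for all genes, and 66 of 77 values were positive. Both subunits were involved, with 13 of 26 small-subunit and 27 of 50 large-subunit genes higher. Scaling by total counts gave 26 genes higher. The authors' TPM gave 18 higher and 7 lower, with a median of 0.03 and 27.8% of all calls higher, against 50.6% here. The median of all genes on TPM is not given, so the 0.03 has nothing to be set against. Leaving out 7 d DOX replicate 2 or withdrawn replicate 2 or 3 gave 1 gene lower. The beta-cell markers summed to 21373 to 21939 CPM after withdrawal and 17439 to 18190 CPM under 7 d DOX, and their part was not tested.

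Against 7 d DOX, withdrawal was accompanied by log2 changes of 0.55 ± 0.053 in Mrpl36 (SE, adjusted p = 3.94e-11, edgeR) and 0.50 ± 0.05 in Mrpl11 (SE, adjusted p = 5.22e-11). Mrps33, a mitochondria-specific small-subunit protein, had 16.5, 16.7 and 18.7 CPM after withdrawal, 12.5, 12.7 and 12.8 CPM under 7 d DOX and 14.3, 13.8 and 13.7 CPM with no DOX. It was thus highest after withdrawal, above no DOX as well as above 7 d DOX (0.44 against 7 d DOX, adjusted p = 9.58e-06). Mrpl18 (0.39), Mrpl17 (0.39), Mrps12 (0.35), Mrpl12 (0.30) and Mrpl57 (0.30) also rose, while Mrpl48 (-0.26), Mrpl27 (-0.17) and Mrps25 (-0.17), higher under 7 d DOX than with no DOX, fell. Mrpl27 lost its call without 7 d DOX replicate 2 or withdrawn replicate 2 or 3 (adjusted p = 0.068 to 0.14), and Mrpl48 on TPM (0.066, limma). Mrps6 was not called after withdrawal against 7 d DOX (-0.04, adjusted p = 0.677), nor was Mrpl10 (0.02, adjusted p = 0.769); on TPM, Mrpl10 was lower after withdrawal (-0.15, adjusted p = 0.00603, limma).

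Against no DOX, withdrawn miR-23b cells had 5 genes higher and 8 lower, where 19.2% and 20.6% of all genes tested were. The genes' median was -0.01 beside 0.00 for all genes. Mrps6 was lower: its withdrawn libraries had 18.1, 15.1 and 13.4 CPM, its 7 d DOX libraries 16.4, 16.3 and 15.5 CPM and its no DOX libraries 19.3, 20.4 and 21.3 CPM. Every withdrawn Mrps6 value thus lay below every no DOX value (-0.38 ± 0.081, SE, adjusted p = 0.000188, edgeR). Mrpl36 (-0.21), Mrps18a (-0.19), Mrpl34 (-0.19), Mrpl43 (-0.18), Mrpl18 (-0.17) and Mrpl10 (-0.14) were lower too, and Mrps33 (0.31), Mrpl35 (0.29), Mrps10 (0.20), Mrpl14 (0.20) and Mrps31 (0.18) higher. Single libraries decided the calls of Mrpl34, Mrpl43 and Mrps31 (withdrawn replicate 1), Mrpl34, Mrps31 and Mrpl10 (no DOX replicate 2) and Mrpl10 (withdrawn replicate 3), with adjusted p from 0.082 to 0.18 without them. The counts became 8 higher without withdrawn replicate 3 or with total-count scaling and 4 lower without no DOX replicate 2. Mrpl11 (0.03), Mrpl17 (0.02) and Mrps12 (0.03) were not called. Mrps10 lost its call on TPM (adjusted p = 0.36, limma), and Mrps31 with DESeq2 (0.0506).

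In the miR-137 line, 18 genes were higher and 2 lower after withdrawal than under 7 d DOX, beside 14.7% and 14.8% of all genes tested. The median was 0.07 beside 0.00. The rise covered 15 of 50 large-subunit genes and 3 of 26 small-subunit genes. Without 7 d DOX replicate 3 it was 6 genes, without withdrawn replicate 3 it was 10, and on TPM it was 10, so much of the count rests on single libraries. Mrpl18 rose by 0.36 ± 0.054 (SE, adjusted p = 2.53e-06, edgeR), and Mrpl1 (0.25), Mrps35 (0.24), Mrpl35 (0.21) and Mrpl32 (0.21) rose as well. Mrps35 lost its call without 7 d DOX replicate 1 or 3, and Mrpl32 without 7 d DOX replicate 3 or withdrawn replicate 3 (adjusted p = 0.053 to 0.11), and both on TPM (0.10 and 0.056, limma). The genes that were lower were Mrpl14 (-0.20) and Mrpl36 (-0.15). The number lower was 0 without 7 d DOX replicate 1 or withdrawn replicate 1, and 1 without 7 d DOX replicate 2 or withdrawn replicate 3, with adjusted p of 0.051 to 0.12 for the lost calls.

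Mrpl36 had 36.1, 36.6 and 35.5 CPM after withdrawal in the miR-137 line, 41.3, 41.4 and 36.9 CPM under 7 d DOX and 52.5, 51.1 and 47.9 CPM with no DOX. Its withdrawn libraries were lowest, without overlap with either other state (-0.49 ± 0.049 against no DOX, SE, adjusted p = 1.2e-10, edgeR). In all, withdrawn miR-137 cells had 14 genes higher and 8 lower than no DOX, where 21.6% and 21.7% of all genes tested were. The number higher was 9 without withdrawn replicate 1 or 3, 6 without no DOX replicate 3, 8 with DESeq2, and 6 on TPM, where 39.5% of all calls were higher against 49.9% here. Mrps6 was lower, at -0.55 ± 0.078 (SE, adjusted p = 2.88e-07), and Mrpl34 (-0.24), Mrpl45 (-0.20), Mrpl37 (-0.17) and Mrpl12 (-0.17) were lower too. Mrps31 (0.36), Mrps10 (0.22), Mrpl47 (0.21), Mrpl21 (0.21) and Mrps33 (0.20) were higher. On TPM, Mrps10 (adjusted p = 0.46, limma), Mrpl45 (0.12) and Mrpl47 (0.082) were not called. The call of Mrps33 was lost with DESeq2 (0.071) and without withdrawn replicate 1 or no DOX replicate 1 or 3 (adjusted p = 0.064 to 0.22). Whether the withdrawal response differs between the miRNA lines was not tested.

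**Figure D4:**
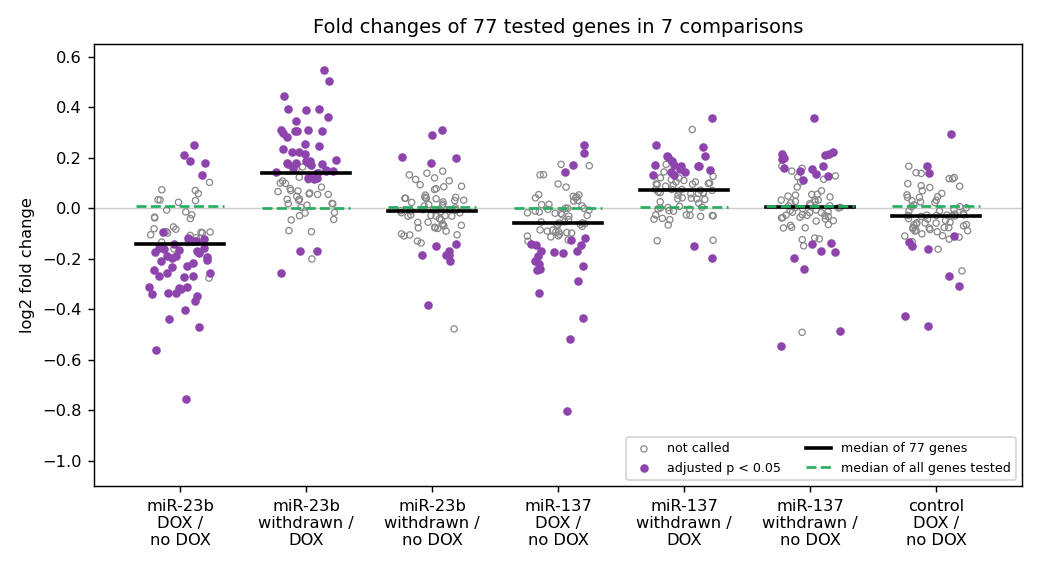
Log2 fold change of each of the 77 tested genes in 7 comparisons within a line; filled points passed an adjusted p of 0.05, black bars are the median of the 77 genes and dashed bars the median of all 14866 genes tested. The median is -0.14 for 7 d DOX against no DOX and 0.14 for withdrawal against 7 d DOX in the miR-23b line, and lies nearer 0 in the other comparisons.

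The lines were also compared without the drug. The miR-23b line had 3 genes higher than the control line and 0 lower, where 3.59% and 2.78% of all genes tested were. At an unadjusted p below 0.05 edgeR gave 9 higher and 2 lower, and the share of all genes tested at that threshold was not computed. DESeq2 gave 3 higher and 0 lower after adjustment, and limma on TPM 2 and 0. Mrps6 was higher, at 19.3, 20.4 and 21.3 CPM in untreated miR-23b cells and 15.4, 15.7 and 18.3 CPM in untreated control cells (0.31 ± 0.079, SE, adjusted p = 0.0129, edgeR). The lowest miR-23b value exceeded the highest control value, but the call of Mrps6 was lost on TPM (adjusted p = 0.072, limma) and without control replicate 1 or 2 or miR-23b replicate 2 or 3 (0.052 to 0.097). Mrpl20 (0.19) and Mrps5 (0.17) were higher as well. The count was 0 without control replicate 1 and 1 without control replicate 2 or miR-23b replicate 1, 2 or 3 (adjusted p of the lost calls 0.052 to 0.15), and Mrps5 was lost without a filter on low counts (0.054). Of all calls 37.5% were higher with total-count scaling and 34.4% on TPM, against 56.3% here.

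The miR-137 line without the drug had 0 genes higher and 0 lower than the control line by edgeR, where 1.89% and 0.814% of all genes tested were. At an unadjusted p below 0.05 there were 3 higher and 2 lower, and here too the share of all genes tested was not computed. DESeq2 and limma on TPM each gave 0 and 0 after adjustment. Without control replicate 3, 1 gene was higher. Mrps6 had the largest value, at 18.9, 19.5 and 20.4 CPM in untreated miR-137 cells and 15.4, 15.7 and 18.3 CPM in untreated control cells (0.25 ± 0.078, SE, adjusted p = 0.0757). Of all calls 51.8% were higher with total-count scaling, against 69.9% here. Over all 11 comparisons, 9 of the 77 genes were never called: Mrpl22, Mrpl33, Mrpl41, Mrpl44, Mrps14, Mrps18c, Mrps22, Mrps24 and Mrps36. The share of all genes tested that was never called was not computed, so the 9 cannot be set against it.

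Other genes of mitochondrial translation were read from the same tests. Of 5 mitoribosomal proteins without such a symbol, 2 fell in the miR-23b line under 7 d DOX, Gadd45gip1 (-0.21) and Aurkaip1 (-0.11). Of 26 genes for assembly of the mitochondrial ribosome and maturation of its RNA, 4 rose and 4 fell there, where 28.8% of all genes tested rose and 28.6% fell. Mpv17l2, needed for subunit assembly, fell in the miR-23b line (log2 fold change -0.51) and in the control line (-0.26). Tfb1m, a methyltransferase of the small-subunit RNA, fell in the miR-23b line (-0.36). Of 15 tested translation factors, 4 fell and 1 rose in the miR-23b line, 5 fell in the miR-137 line, and 4 fell and 1 rose in the control line. Over all genes tested, 28.6% fell and 28.8% rose in the miR-23b, 21.8% and 21% in the miR-137 and 19.3% and 18.5% in the control line, and these shares also stand beside the lists that follow. Lrpprc, which stabilises mitochondrial mRNAs, fell in all 3 lines, at -0.59 in the miR-23b, -0.55 in the miR-137 and -0.45 in the control line. It was still lower after withdrawal than with no DOX (-0.35 in the miR-23b and -0.44 in the miR-137 line).

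Of 17 mitochondrial aminoacyl-tRNA synthetases, which charge tRNAs, 6 rose and 2 fell in the miR-23b line under 7 d DOX, 3 fell in the miR-137 line, and 2 rose and 4 fell in the control line. Hars2 (0.43) rose and Wars2 (-0.46) fell in the miR-23b line. Of 16 tested genes for mitochondrial transcription and DNA maintenance, 5 rose and 4 fell in the miR-23b line, 1 rose and 5 fell in the miR-137 line, and 2 rose and 2 fell in the control line. Polg2, the accessory subunit of the mitochondrial DNA polymerase, rose in all 3 lines (0.45 in the miR-23b, 0.46 in the miR-137 and 0.44 in the control line). Tfam, which packages mitochondrial DNA, fell in the miR-23b (-0.27) and miR-137 lines (-0.17).

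The sequences shown above were set against these changes as a description. Of 69 ribosomal protein genes with a RefSeq promoter, 37.7% held the ETS motif, against 19.4% of genes tested and 9.93% of all promoters in the table. The NRF1 motif was in 11.6%, against 5.84% and 3.05%, and the YY1 motif in 17.4%, against 5.03% and 3.19%. With the longer form CCGGAAGT, which contains the ETS motif, the share was 17.4%, against 8.89% and 4.31%, and with the longer NRF1 form 4.35%, against 2.24% and 1.07%. At least 1 of the 3 shorter motifs was in 38 promoters (55.1%, against 27.4% and 14.9%). In the miR-23b line under 7 d DOX, 19 of 37 tested genes with such a motif fell and 3 rose (median -0.14), and 18 of 31 without one fell and 2 rose (median -0.18). Over all genes tested, 28.6% fell and 28.8% rose there. The shares among all genes tested with and without a motif were not computed. Mrpl11, without a match, and Mrpl17, Mrps12 and Mrpl36, with one, all fell.

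Seed matches to miR-27b-3p or miR-24-3p were in the 3' UTR of 20 of the 77 genes (26.0%), against 32.4% of 12979 tested genes with a 3' UTR. The median difference between the miR-23b and control responses was -0.10 for the genes with a match, of which 5 were lower and 1 higher, and -0.11 for those without, of which 17 were lower. Over all genes tested with a 3' UTR, 1001 of 4201 with a match were lower and 874 higher. Of 8778 without a match, 1700 were lower and 1702 higher. Matches to miR-23b-3p, also encoded by the cluster, were not searched, so the genes without a match may hold some. Among the ribosomal protein genes, the 3' UTRs of those with a match had a median length of 2481 bases and those without 307 bases. A match to miR-137-3p was in 4 of 77 genes (5.19%), against 10.6% of tested genes: Mrpl15, Mrpl18, Mrpl48 and Mrpl49. Only the site of Mrpl18 is printed above. Of the 4, only Mrpl18 was called lower in the difference between the miR-137 and control responses, and 0 were called higher. The median difference was -0.09 for the 4 and -0.05 for the 73 without a match. Over all genes tested with a 3' UTR it was -0.07 with a match and 0.00 without. Mrpl18 held no match to miR-27b-3p or miR-24-3p. Its response differed from control by -0.51 in the miR-23b and -0.38 in the miR-137 line. By exon overlap with other genes, in the miR-23b line, 7 d DOX against no DOX, 18 of 32 overlapping genes fell and 3 rose (median -0.16). Of the 45 others, 24 fell and 2 rose (median -0.13), a split chosen after the values were seen. Over all genes tested, 28.6% fell and 28.8% rose, and their shares with and without exon overlap were not computed.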

How the data were processed

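Polyadenylated RNA of 24 cultures was sequenced with a stranded kit, per the labels' protocols. The deposited raw counts per gene are unnormalised; the submitters' processing notes name featureCounts, STAR 2.4.0g, cutadapt 1.3, HTSeq 0.6.1 and RSEM 1.2.19, and the build GRCm38 (mm10). Which of them made which file is not stated. The deposited table of TPM was made by the authors for the same libraries. Between 25.4% and 27.7% of reads were listed as mapping to several places and were not in the gene counts.

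Symbols and coordinates came from GENCODE M21, promoters and miRNAs from RefSeq (GRCm38.p6), and 9 of the 78 genes had no promoter entry. Rows that name no gene stayed out of library sizes. Counts were fitted with edgeR 4.0.16 (R 4.3.3): TMM, default expression filter, 8 group means in 1 quasi-likelihood fit over all 24 libraries, and Benjamini-Hochberg adjustment over 14866 genes at 0.05. CPM are counts scaled to TMM-adjusted library sizes. Every SE is that of a log2 fold change, its size divided by the square root of F; SD is over 3 libraries. The common biological coefficient of variation was 3.00%. A difference of responses is 7 d DOX minus no DOX in one line, minus the same in the control line. Alternatives were DESeq2 1.42.0, limma 3.58.1 on log2(TPM + 0.5), RLE or total-count scaling, no filter, the compared groups alone, the replicate number as a block, and each library left out. The scripts were tested on simulated data. No libraries were duplicates: within groups, counts differed beyond sampling noise (chi-square per degree of freedom 1.49 to 3.88). Same-numbered samples were not paired by the labels, and their deviations correlated by -0.066 to 0.183 (median 0.027). Those of differently numbered samples correlated by -0.160 to 0.088 (median -0.014). The main fit has no term for the replicate number.

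The genes and gene lists were chosen with earlier results of these data known. Genes named in a comparison were the called ones of largest log2 fold change without overlap between libraries, up to 8 each way for 7 d DOX against no DOX and 5 elsewhere, plus genes picked by role or level whatever their values; other genes, such as the rest of a ribosome region, were named after their values were seen.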

Additional observations from a re-analysis of the deposited data

Results flagged for a closer look

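Each result here is a drug response (7 d DOX against no DOX) that differed between a miRNA line and the control line in edgeR's test of the difference itself, at an adjusted p below 0.05 over all genes tested. With 3 libraries a group, no library was tested for standing apart from its group.

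In the miR-23b line the response of Mrpl17 was lower than in the control line by a log2 difference of -0.53, that of Mrpl18 by -0.51 and that of Mrpl11 by -0.50. The differences were -0.36 for Mrpl55, -0.34 for Mrps16, -0.32 for Mrps12 and -0.29 for Mrpl57. Mrpl48 differed the other way, by 0.28. On the authors' TPM with limma, Mrpl48 (adjusted p = 0.37), Mrpl57 (0.086) and Mrpl55 (0.064) were not called.

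In the miR-137 line the response of Mrpl18 was lower than in the control line by -0.38 and that of Mrpl1 by -0.27. Mrpl18 is the gene named in both lines, and both differences use the same control libraries.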

How the results depend on the processing

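No count of genes moved by more than 1.5 times with RLE scaling, with the compared groups alone or with the replicate block. Under the block, 42 genes fell and 4 rose in the miR-23b line under 7 d DOX, 39 rose after withdrawal there, 19 fell in the miR-137 line and 8 in the control line; it ended the calls of Mrps10 (7 d DOX, adjusted p = 0.052) and Mrps30 (withdrawal, 0.051) in the miR-23b line and of no other gene named by the rule. Of 24 libraries 20 correlated best with their own number, and 3 of 84 same-number correlations passed 0.1, against 0 of 168 between different numbers. What libraries of 1 number share is not stated by the labels. Total-count scaling gave 26 genes higher after withdrawal against 7 d DOX in the miR-23b line, 8 higher against no DOX, and 2 higher in the miR-23b response difference. Without a filter, the miR-137 response difference and the untreated miR-137 line against control each had 1 gene higher. DESeq2 gave 8 higher after withdrawal against no DOX in the miR-137 line. The authors' TPM gave 27 genes lower in the miR-23b line under 7 d DOX, 18 higher and 7 lower after withdrawal against it, 10 higher (withdrawal against 7 d DOX) and 6 higher (against no DOX) in the miR-137 line, 2 higher and 12 lower in the miR-23b and 5 lower in the miR-137 response difference; there Mrpl10 reversed after withdrawal in the miR-23b line (-0.15). The cause was not tested. The share of all calls that were higher in the miR-137 response difference was 66.5% without a filter and 55.2% with it.

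Leaving out 1 library at a time gave, for 7 d DOX against no DOX, 36 to 42 genes lower and 2 to 5 higher in the miR-23b line, 12 to 19 and 2 to 6 in the miR-137 line, and 6 to 11 and 2 to 5 in the control line. For withdrawal against 7 d DOX it gave 27 to 40 higher and 1 to 3 lower (miR-23b) and 6 to 20 and 0 to 3 (miR-137). For withdrawal against no DOX it gave 4 to 8 higher and 4 to 10 lower (miR-23b) and 6 to 13 and 6 to 10 (miR-137). The response differences had 17 to 23 lower and 1 to 2 higher (miR-23b) and 1 to 2 and 0 to 1 (miR-137). The untreated lines had 0 to 3 higher (miR-23b) and 0 to 1 higher (miR-137) than the control line and 0 lower. With 3 libraries a group and a median SE of 0.057 for the genes in the miR-23b line, changes below about 0.10 on the log2 scale were not called.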
